A study of Mus musculus with 9 samples.

Results

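The nuclear-encoded respiratory chain genes were taken by symbol from the deposited expression table. Every row whose symbol began with Nduf followed by a, b, c, s or v and a digit, with Uqcr, with Cox and a digit from 4 to 8, or with Atp5 was kept, together with Sdha, Sdhb, Sdhc and Sdhd. This gave 84 of the 24132 genes of the table. Of these 84 genes, 37 carried complex I names, 4 complex II, 8 complex III, 18 complex IV and 17 complex V. The names were not all subunits. Cox7a2l encodes a factor that joins complexes III and IV, Ndufa4l2 encodes a homologue of Ndufa4, and Atp5s and Atp5sl encode factors outside the ATP synthase. Ndufa4 itself is now counted with complex IV by many authors and was left here under its older complex I name. The pattern also missed true subunits such as Ndufab1 and Cyc1.

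The respiratory chain sits in the inner mitochondrial membrane. Complexes I and II pass electrons from NADH and succinate to ubiquinone, complex III passes them to cytochrome c, and complex IV passes them to oxygen. Complexes I, III and IV pump protons, and complex V, the ATP synthase, lets them flow back to make ATP. Most subunits are encoded in the nucleus on many chromosomes and must be made in matched amounts with the few encoded in mitochondrial DNA. Naive mouse embryonic stem cells use both glycolysis and respiration.

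The study asked which RNAs are held by WDR5, a subunit of MLL complexes that write H3K4 methylation, and whether the F266A change in WDR5 alters that holding. The 3 lines were feeder-free 129/B6 F1 hybrid mouse embryonic stem cells grown with LIF, all carrying a lentivirus. The EV line carried the empty vector, the WT line FLAG-HA WDR5 WT, and the F266A line FLAG-HA WDR5 F266A, a construct that is also shorter at its N-terminus. Both constructs were of human WDR5 and were expressed beside the Wdr5 of the mouse cells. The lines were isolated clones, so clone and construct cannot be told apart. After formaldehyde crosslinking, RNA was recovered by FLAG and then HA immunoprecipitation (IP) in 2 libraries per line, and 1 input library per line was sequenced, giving 9 libraries in all. The EV line holds no tagged WDR5, so its IP libraries give the background of the procedure. Values were RPKM, read density per unit of exon length, scaled to the mapped reads of the library. Nothing in the labels said that the 2 IPs of a line came from separate cultures, so the tests measured the spread between those libraries only.

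The libraries were checked before they were compared. Estimated mapped reads ran from 13400000 in EV IP replicate 2 to 50200000 in the EV input. Matched gene models held 20.1% to 22.6% of the reads in the inputs and 27.2% to 29.5% in the IPs. All 8 stem cell marker genes, Pou5f1 and Nanog among them, were at 1 RPKM or more in every library. Of 6 fibroblast genes Col3a1 was at 0 in every library, and their sum, mostly Fn1, was 16.8 to 43.0 RPKM. The mouse Wdr5 row was at 8.05, 9.54 and 5.85 RPKM in the EV, WT and F266A inputs, which by itself does not check the human constructs. One library stood apart. The summed RPKM of 4 Y-linked genes of the F266A line was 0.0383 in its first IP replicate, compared with 4.43 in its input and 7.21 in its second, against 7.42 to 9.50 in EV and 0.182 to 0.324 in WT. The summed RPKM of 12 primitive endoderm genes was likewise lower there, at 22.04, than in the input and second replicate of F266A, at 57.1 and 72.9, against 23.1 to 30.3 in the libraries of both other lines. Of these 12 genes 7 were at 1 RPKM or more in the F266A input and IP replicate 2, 5 in IP replicate 1, and 3 or 4 elsewhere. F266A IP replicate 1 therefore differed from the other libraries that carry its label. Some results that rest on it, named where they appear, are given without it as well. The counts of genes whose IPs did not overlap, the F266A minus EV medians by complex and the enrichment contrasts include it.

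The gene models placed 83 of the 84 genes on 19 chromosomes, with at most 9 on one, chromosome 7. Because the values come from short reads, near-identical sequence elsewhere in the genome matters for the counting. Of the 84 genes 9 had at least 1 copy elsewhere of 98% identity or more over at least 50% of the transcript. These were Ndufs3, Ndufs5, Uqcr11, Uqcrb, Cox5b, Atp5f1 and Atp5h with 1 copy each, and Atp5g2 and Atp5l with 3 copies each. How reads with several placements were counted is not given in the sources used here, so the levels of these 9 genes are uncertain. Atp5g1, Atp5g2 and Atp5g3, on chromosomes 11, 15 and 2, all encode the c subunit that forms the proton-carrying ring of ATP synthase. Their last 75 codons before the stop are printed because they show why a single protein sequence can still be assigned to 3 genes. Capitals mark the positions where the 3 genes are not all alike.
Atp5g1: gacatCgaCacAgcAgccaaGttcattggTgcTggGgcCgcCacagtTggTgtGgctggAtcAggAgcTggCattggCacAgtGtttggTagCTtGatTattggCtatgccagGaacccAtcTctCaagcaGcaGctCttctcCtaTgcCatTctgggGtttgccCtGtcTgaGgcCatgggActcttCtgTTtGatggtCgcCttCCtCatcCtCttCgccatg
Atp5g2: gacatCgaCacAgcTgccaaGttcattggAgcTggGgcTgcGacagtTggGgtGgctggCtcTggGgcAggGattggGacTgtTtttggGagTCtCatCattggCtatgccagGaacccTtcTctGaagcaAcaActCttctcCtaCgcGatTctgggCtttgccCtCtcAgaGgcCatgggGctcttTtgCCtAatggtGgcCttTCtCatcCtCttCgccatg
Atp5g3: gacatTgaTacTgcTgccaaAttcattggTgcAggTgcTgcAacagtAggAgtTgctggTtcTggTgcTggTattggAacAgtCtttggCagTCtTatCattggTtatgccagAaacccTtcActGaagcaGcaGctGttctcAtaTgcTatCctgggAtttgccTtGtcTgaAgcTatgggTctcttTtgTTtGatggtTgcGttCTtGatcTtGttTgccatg
All 3 stretches encode the same residues. They differ at 57 of 225 positions, and 168 positions are shared. The longest run shared by a pair is 20 bases, between Atp5g1 and Atp5g2, and the longest shared by all 3 genes is 8 bases.

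Levels ranged widely among the genes. Of the 84 genes, 79 reached 1 RPKM in at least 2 libraries and entered the tests. The median level, as the mean over the 9 libraries, was 6.25 RPKM for the 37 complex I genes, 11.9 for complex II, 11.8 for complex III, 14.5 for the 13 complex IV genes tested and 14.1 for complex V. The highest complex I gene, Ndufa7 at 23.3 RPKM, was 23.3 times the lowest, Ndufa11 at 0.999 RPKM. The corresponding span was 2.17 in complex II, from Sdhd to Sdhc, and 4.46 in complex III, from Uqcrb to Uqcr10. It was 41.2 in complex IV, from the muscle isoform gene Cox7a1 to Cox8a, and 34.0 in complex V, from Atp5sl to Atp5b. Atp5b, the catalytic beta subunit, was the highest of all. The EV, WT and F266A inputs held it at 106, 95.1 and 87.6 RPKM, and the paired IPs of these lines at 164 and 144, 115 and 122, and 115 and 122 RPKM. Together the 84 genes took 1.06% to 1.33% of the summed RPKM of a library.

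**Figure D1:**
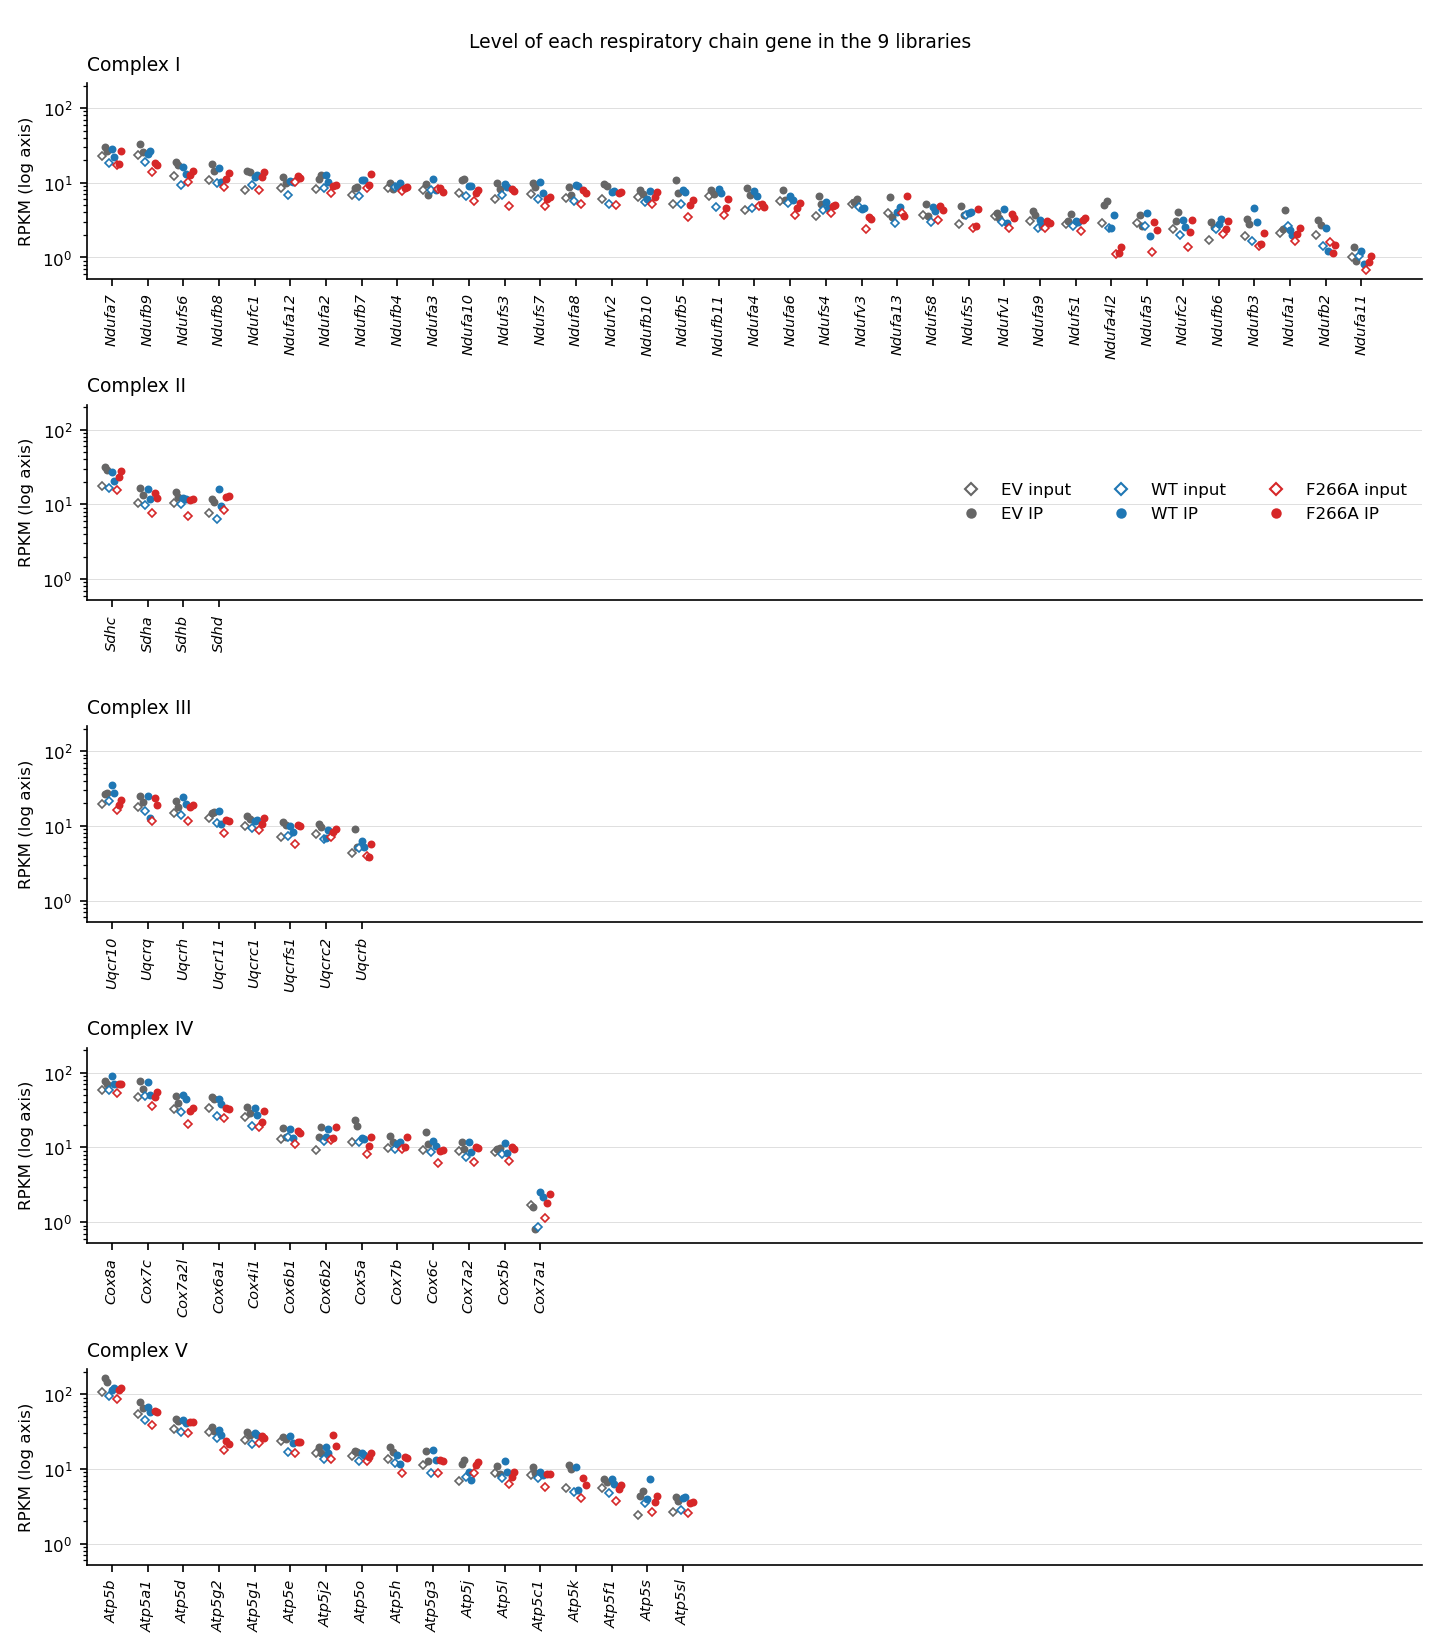
RPKM on a log axis for the tested genes, all but 1 of the 79, in the 9 libraries, one panel per complex, with genes ordered by mean level. Open diamonds are inputs and filled circles IPs, coloured by line; within a complex the mean levels differ by up to 41.2 times, from Cox7a1 to Cox8a, and the F266A values of Ndufa4l2 lie below those of the other lines.

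Several subunits have a common isoform and a tissue-restricted one, and the table separated them. Cox4i2, a lung and oxygen-responsive isoform, was at 0 to 0.827 RPKM while Cox4i1 was at 18.6 to 34.7 RPKM. Cox6a2 and Cox8b, both muscle isoforms, stayed at or under 0.113 RPKM in every library, where 3 reads correspond to between 0.0908 and 0.618 RPKM depending on the gene and the library. Their partners Cox6a1 and Cox8a averaged 36.2 and 68.7 RPKM. Cox7b2 and Cox8c were as low, at no more than 0.147 and 0.160 RPKM, and with Cox4i2 these are the 5 genes that were not tested. Cox7a1 stayed below Cox7a2 in every library, with Cox7a2 at 3.97 to 11.6 times its level.

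Cox6b2, known as the testis isoform of the subunit that sits where the complex IV monomers meet, was the exception. Its RPKM was 9.37, 13.6 and 18.7 in the EV input and IPs, 12.3, 13.96 and 17.4 in WT, and 12.5, 13.4 and 18.8 in F266A. Its widespread partner Cox6b1 was at 13.0, 18.1 and 13.7 RPKM in EV, 13.7, 17.9 and 13.4 in WT, and 11.2, 16.6 and 15.7 in F266A. The means were 14.5 RPKM for Cox6b2 and 14.8 RPKM for Cox6b1, and Cox6b2 was the higher of the pair in 4 of 9 libraries. In each of the 3 lines Cox6b1 was higher in IP replicate 1 and Cox6b2 in IP replicate 2. Neither gene had a near-identical copy by the criterion above. Among the c subunit genes Atp5g2 and Atp5g1 averaged 27.9 and 26.6 RPKM and Atp5g3 12.9 RPKM, with the copies of Atp5g2 leaving its place in this order open to the counting of shared reads. Ndufa4 averaged 5.95 RPKM and Ndufa4l2, a gene induced by hypoxia, 2.89 RPKM.

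**Figure D2:**
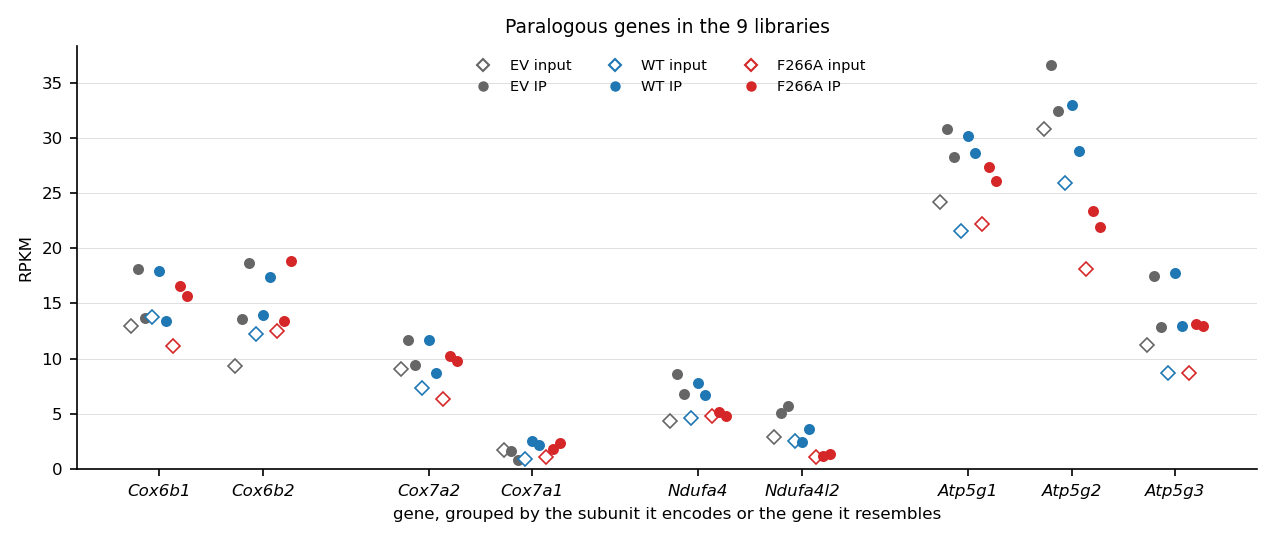
RPKM of paralogous genes in the 9 libraries, with open diamonds for inputs, filled circles for IPs and colour for line. Cox6b1 and Cox6b2 overlap, at means of 14.8 and 14.5 RPKM, Cox7a1 lies below Cox7a2 in all 9 libraries, and the F266A values of Ndufa4l2 and Atp5g2 are the lowest of their gene.

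The promoters were read to see what the genes share that the symbols did not use. RefSeq windows from 250 bases before to 50 bases after the start, on GRCm38.p6, were found for 69 genes, 3 of them under an older name; for genes with several windows a match in any of them was counted. The letters GCGCATG, found in sites of NRF1, were held on either strand by 13 of 69 genes (18.8%) against 4.41% of all 27025 genes with a window. CCGGAAG, the core of sites for ETS factors such as GABP, was held by 16 genes (23.2%) against 9.93%. AAGATGG, found in YY1 sites, was held by 12 genes (17.4%) against 7.28%. One of these 3 was present in 33 of 69 genes (47.8%), against 19.5% of all genes. TATAAA was held by 10.1% against 15.7% and CCAAT by 44.9% against 41.1%. The median GC content of the windows was 57.33% against 52.75% for all genes, and its part in these shares was not tested; all letters were sought on both strands, and overlapping matches of different motifs were each counted. A match is a description of letters and not evidence of binding. The windows of the equally abundant pair Cox6b1 and Cox6b2, of Sdhb and of Atp5g2 are printed to show windows with and without these letters; capitals mark the NRF1 and ETS letters on either strand.
Cox6b1, chr7:30626065-30626364, minus strand: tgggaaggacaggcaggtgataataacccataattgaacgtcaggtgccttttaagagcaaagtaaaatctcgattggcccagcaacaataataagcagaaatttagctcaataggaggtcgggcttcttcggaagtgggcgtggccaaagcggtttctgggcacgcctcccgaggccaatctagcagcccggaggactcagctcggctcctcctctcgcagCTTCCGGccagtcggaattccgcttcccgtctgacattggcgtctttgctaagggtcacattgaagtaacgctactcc
Cox6b2, chr7:4753045-4753344, minus strand: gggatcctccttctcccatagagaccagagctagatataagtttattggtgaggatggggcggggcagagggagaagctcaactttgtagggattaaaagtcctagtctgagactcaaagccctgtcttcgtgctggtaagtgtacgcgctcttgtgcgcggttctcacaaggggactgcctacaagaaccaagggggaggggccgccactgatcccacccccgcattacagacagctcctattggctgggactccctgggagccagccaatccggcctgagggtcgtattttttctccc
Sdhb, chr4:140961021-140961320, plus strand: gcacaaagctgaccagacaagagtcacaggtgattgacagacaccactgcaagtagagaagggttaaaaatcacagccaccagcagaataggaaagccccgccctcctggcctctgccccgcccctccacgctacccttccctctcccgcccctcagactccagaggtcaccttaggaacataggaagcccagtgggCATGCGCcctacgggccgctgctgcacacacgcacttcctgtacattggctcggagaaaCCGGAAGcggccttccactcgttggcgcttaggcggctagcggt
Atp5g2, chr15:102670998-102671297, minus strand: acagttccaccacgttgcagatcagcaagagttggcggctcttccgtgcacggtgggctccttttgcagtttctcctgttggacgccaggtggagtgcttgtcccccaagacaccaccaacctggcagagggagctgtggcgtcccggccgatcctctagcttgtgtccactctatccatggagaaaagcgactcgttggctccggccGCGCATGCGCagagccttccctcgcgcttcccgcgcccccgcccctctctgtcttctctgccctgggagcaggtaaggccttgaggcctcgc
Sdhb held both, Cox6b1 the ETS letters and Atp5g2 the NRF1 letters. Cox6b2 held neither, while both genes of the pair held CCAAT.

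The first comparison asked whether respiratory chain RNA was higher in the IPs than in the inputs. On the deposited scale 60 of the 79 genes tested (75.9%) were higher and 0 lower, against 56.4% of all 9787 genes higher and 0.47% lower (limma on log2(RPKM + 1), all 3 lines, Benjamini-Hochberg adjusted p under 0.05). The median difference was 0.40 for the 79 genes and 0.30 for all genes, and the whole table was thus shifted in the same direction. Without the EV line the count was 31 and without the F266A line 39, with the shares of all genes in these 2 fits not given here. Without F266A IP replicate 1 the median difference stayed at 0.40 for the 79 genes and 0.30 for all genes. When the libraries were scaled to the same summed RPKM the median of all genes fell to 0.07 and that of the 79 genes to 0.12. On that scale 0 of the 79 passed, against 2.99% of all genes higher. By limma's unadjusted p under 0.05, 12 of the 79 and 2164 of all 9787 genes differed. The difference still lay above 0 there for 67 of the 79 genes, against 6705 of all genes. With quantile normalization the medians were -0.01 for the 79 genes and -0.004 for all genes, and 37 and 4794 lay above 0. Again 0 of the 79 passed, against 1.03% of all genes higher. The calls therefore rest on the scaling, and with quantile normalization the direction was lost too. The values below are given on the deposited scale unless another is named.

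By complex, 24 of 37 complex I genes passed, with a median difference of 0.35, 4 of 4 complex II genes with 0.59, 5 of 8 complex III genes with 0.38, 12 of 13 complex IV genes with 0.45 and 15 of 17 complex V genes with 0.41. The shares of 64.9% in complex I and 62.5% in complex III stood near the 56.4% of all genes, and 0 genes of any complex passed with the same summed RPKM. The F1 part of ATP synthase, which holds the catalytic sites, passed in 5 of 5 genes with a median of 0.43. In complex I, 6 of 7 genes for the conserved core subunits passed and 16 of 28 (57.1%) for the supernumerary subunits. Of the 9 genes with near-identical copies 4 passed, with a median of 0.32, and of the other 70 genes tested 56, with a median of 0.40. The genes are short, with a median of 1265 exon bases against 3586 for all genes tested with a model. Across genes, which are not replicates, the correlation of log2 length with the IP minus input difference was 0.04 over 78 of them and -0.20 over 8921 genes.

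The complex II genes stood at the top of this order. Sdha, the flavoprotein that oxidises succinate, was at 10.3, 9.88 and 7.66 RPKM in the EV, WT and F266A inputs and at 16.3 and 13.5, 15.98 and 11.9, and 14.1 and 12.3 RPKM in their IPs. Sdhb, the iron-sulfur subunit, was at 10.3, 10.02 and 6.99 RPKM in the inputs and at 14.6 and 12.7, 11.99 and 11.9, and 11.4 and 11.8 RPKM in the IPs. In both genes all 6 IPs lay above all 3 inputs.
Sdhc, a membrane anchor, was at 17.8, 16.4 and 15.5 RPKM in the inputs and at 31.4 and 29.2, 26.8 and 20.8, and 23.0 and 27.6 RPKM in the IPs. Sdhd, the other anchor, was at 7.60, 6.41 and 8.44 RPKM in the inputs and at 11.8 and 10.9, 15.9 and 9.61, and 12.5 and 13.0 RPKM in the IPs. Again no IP fell to the level of an input. The difference was 0.55 ± 0.12 (SE) for Sdha, 0.42 ± 0.08 for Sdhb, 0.63 ± 0.11 for Sdhc and 0.64 ± 0.14 for Sdhd, with limma's Benjamini-Hochberg adjusted p between 0.0045 and 0.0083. With the same summed RPKM the differences of the 4 genes ran from 0.13 to 0.35, and 0 of the 4 passed. Those for Sdha and Sdhc were 0.26 and 0.33, with limma's adjusted p of 0.189 and 0.103. With quantile normalization Sdhb lay below 0, at -0.0089, and the other 3 above.

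Over all 79 genes, 27 (34.2%) had all 6 IPs above all 3 inputs, against 42.2% of all genes tested. After scaling to the same summed RPKM this held for 6 of 79 (7.59%) against 9.98% of all genes: Sdha and Sdhc, the complex I genes Ndufc1 and Ndufv2, Atp5d for the delta subunit of F1, and Atp5sl. On neither scale was the share above that of the whole table.

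The other ends of each complex were as follows on the deposited scale. Ndufc1, a supernumerary membrane subunit and the highest in complex I, was 0.59 ± 0.09 higher in the IPs, and Ndufa3 differed by 0.07 ± 0.13, with limma's Benjamini-Hochberg adjusted p of 0.0031 and 0.637. In complex III the ends were Uqcrh, the hinge protein, at 0.53 ± 0.11 and Uqcrc2, a core protein, at 0.27 ± 0.10. In complex IV they were Cox7a2l at 0.58 ± 0.11 and Cox5b at 0.30 ± 0.11, and in complex V Atp5k, the e subunit, at 0.67 ± 0.19 and Atp5o, in the stalk, at 0.23 ± 0.09. Of these 8 genes Ndufa3 alone did not pass on the deposited scale, and Ndufa3, Uqcrc2 and Atp5o lay below 0 with the same summed RPKM. The most abundant genes Atp5b and Cox8a differed by 0.43 ± 0.10 and 0.38 ± 0.11.

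**Figure D3:**
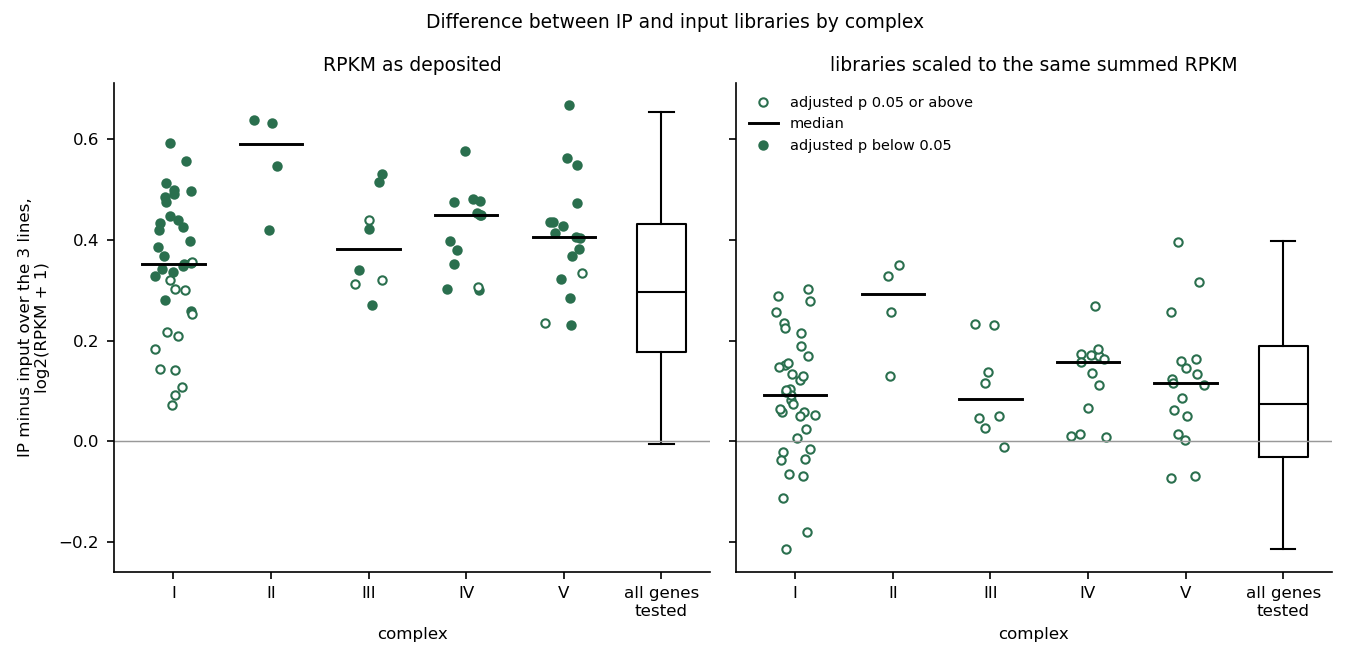
IP minus input difference in log2(RPKM + 1) over the 3 lines for the 79 genes by complex, on the deposited values (left) and after scaling to the same summed RPKM (right). Filled points passed an adjusted p of 0.05, bars are medians, and the box shows the quartiles and the 5th and 95th percentiles of all 9787 genes; on the right 0 of 79 points are filled.

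Within lines the count of genes higher in the IPs was 0 of 79 in WT, 10 of 79 in F266A and 0 of 79 in EV, against 0.174%, 19.3% and 0.613% of all genes; 0 were lower in any line, against 0%, 0.0204% and 0.0102% (limma, Benjamini-Hochberg adjusted). At an unadjusted p under 0.05 the counts were 30, 36 and 27 of 79, against 2840, 4528 and 2929 of all 9787 genes. Among the 10 genes in F266A were Ndufc1, Ndufs3, Ndufv2, Sdha, Sdhb, Sdhc, Uqcrfs1, Atp5f1 and Atp5j2, which include the iron-sulfur protein of complex III and core subunits of complex I. Without F266A IP replicate 1, the library that stood apart, 0 of the 10 passed, and the member median was then 0.47 against 0.42 with both libraries. The count of 10 also changed when single EV or WT IPs, which share the fit's estimate of the spread, were left out. The shares of all genes in the fits without single IPs are not given here. These changes are therefore not read as particular to the respiratory chain genes. The share in F266A, 12.7%, was not above that of all genes.

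The main question of the design was whether enrichment over input depended on the WDR5 line. It did so for 0 of the 79 genes and 0% of all genes in WT against F266A, in WT against EV and in F266A against EV (limma's interaction contrasts, Benjamini-Hochberg adjusted). At an unadjusted p under 0.05 the 79 genes gave 1, 3 and 3 and all genes 259, 173 and 243. The median difference in enrichment was -0.03, -0.02 and 0.05 for the 79 genes and -0.09, 0.01 and 0.10 for all genes. The standard error of a single gene had a median of 0.27, so that small differences were not detectable with 2 IPs and 1 input per line.

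A gene was also asked whether both WT IPs were above their input and above every IP of both other lines relative to their own inputs. This held for 7 of the 79 genes tested (8.86%) against 5.29% of all genes. Exchanging the lines, it held for 12 of 79 with F266A in place of WT against 23.5% of all genes, and for 5 of 79 with EV in place of WT against 4.48%. The 7 genes were Cox7a1, Ndufb7, Ndufa8, Ndufb3, Cox6a1, Ndufa12 and Atp5g1; Cox8c met it too, at 0 to 0.160 RPKM and untested. The values of Cox7a1 carried the largest margin. Its input and IPs stood at 0.871, 2.54 and 2.20 RPKM for WT, at 1.12, 1.80 and 2.35 for F266A, and at 1.71, 1.60 and 0.815 for EV. The WT IPs were high and the WT input was the lowest of the 3 inputs, and WT IP replicate 2 lay below F266A IP replicate 2 in RPKM. Cox7a1 gave an enrichment difference between WT and EV of 1.17 ± 0.32 with an unadjusted p of 0.00637, which did not pass after limma's Benjamini-Hochberg adjustment. The margins of the others over the highest library of another line were 0.03 to 0.10 on the log2 scale, and the gap between their own 2 WT scores was 0.005 to 0.50. Counting the untested genes too, 8 of the 84 genes met the rule (9.52%), against 4.79% of all 24132 genes. With a common input 3 of the 84 met it, and leaving out single IPs also changed the count. The shares of all genes under these changes are not given here, so the changes are not read as particular to the respiratory chain genes.

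Direct comparison of the IPs took the inputs out. WT against F266A gave 0 of 79 genes, against 0.777% of all genes higher and 0.388% lower, with 14 of 79 and 1514 of all genes at an unadjusted p under 0.05. WT against EV gave 0 of 79, against 0% higher and 0% lower of all genes, with 11 of 79 and 557 of all genes at an unadjusted p under 0.05 (both limma, Benjamini-Hochberg adjusted). The WT minus EV difference lay below 0 for 58 of 79 genes and above for 21, with a median of -0.12 against 0.008 for all genes. Both WT IPs lay below both EV IPs in 21 of 79 genes (26.6%), against 17.8% of all genes. They lay above both in 4 (5.06%), against 21.2%. With the same summed RPKM the median was -0.07 against 0.04, and these counts were 21 and 7, against 1205 and 2628 of all genes.

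F266A against EV was the one comparison of lines that called respiratory chain genes. Of the 79 genes 5 were lower in the F266A IPs (6.33%) and 0 higher, against 3.38% of all genes lower and 1.16% higher (limma, Benjamini-Hochberg adjusted). The difference lay below 0 for 70 of 79 genes, with a median of -0.20, while all genes had a median of -0.005. It was -0.31 in complex I, -0.19 in complex II, -0.18 in complex III, -0.14 in complex IV and -0.19 in complex V. Both F266A IPs lay below both EV IPs in 44 of 79 genes (55.7%), against 28.6% of all genes. After scaling to the same summed RPKM the median was -0.06 against 0.11 for all genes, 27 of 79 genes had both F266A IPs below both EV IPs against 16.3% of all genes, and 1 gene passed, Ndufa4l2, against 1.54% of all genes lower.

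Ndufa4l2, at chr10:126951995-126954208 on mm9, showed the largest difference. Its input and IPs stood at 2.87, 5.10 and 5.72 RPKM for EV, at 2.50, 2.49 and 3.66 for WT, and at 1.11, 1.14 and 1.39 for F266A. All 3 F266A libraries were below all 6 libraries of the other lines. The F266A minus EV difference of the IPs was -1.50 ± 0.16 (SE) on the log2(RPKM + 1) scale, with limma's Benjamini-Hochberg adjusted p of 0.0105. Without F266A IP replicate 1 the value was -1.42 with an adjusted p of 0.0120 by limma. The F266A input stood at 0.388 of the EV input, so the gap was present before the IP.

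The other 4 genes moved less. Ndufv3 (chr17:31657060-31668266), an accessory subunit beside the NADH site, was at 5.27, 5.56 and 6.06 RPKM in the EV input and IPs, 4.73, 4.42 and 4.54 in WT, and 2.37, 3.47 and 3.28 in F266A. Ndufb9 (chr15:58765365-58771044), in the membrane arm of complex I, was at 23.8, 32.5 and 25.8 RPKM in EV, 18.7, 24.6 and 26.5 in WT, and 13.7, 18.3 and 17.4 in F266A. In both genes every F266A library lay below every library of the other lines.
Cox5a (chr9:57369039-57380231), a matrix-side subunit of complex IV, was at 11.9, 23.1 and 19.5 RPKM in EV, 11.9, 13.6 and 13.0 in WT, and 8.23, 10.5 and 13.8 in F266A. Atp5g2 (chr15:102493299-102501478), the only one of the 5 with near-identical copies, was at 30.8, 36.6 and 32.4 RPKM in EV, 25.9, 33.0 and 28.8 in WT, and 18.1, 23.4 and 21.9 in F266A. In Cox5a the EV IPs stood above all other libraries and F266A IP replicate 2 lay above the WT IPs, whereas in Atp5g2 all F266A libraries were the lowest. The differences were -0.64 ± 0.11 for Ndufv3, -0.67 ± 0.14 for Ndufb9, -0.77 ± 0.16 for Cox5a and -0.58 ± 0.13 for Atp5g2, with limma's Benjamini-Hochberg adjusted p of 0.0241, 0.0417, 0.0392 and 0.0496. The F266A input was at 0.450, 0.577, 0.695 and 0.587 of the EV input for these genes in the same order.

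**Figure D4:**
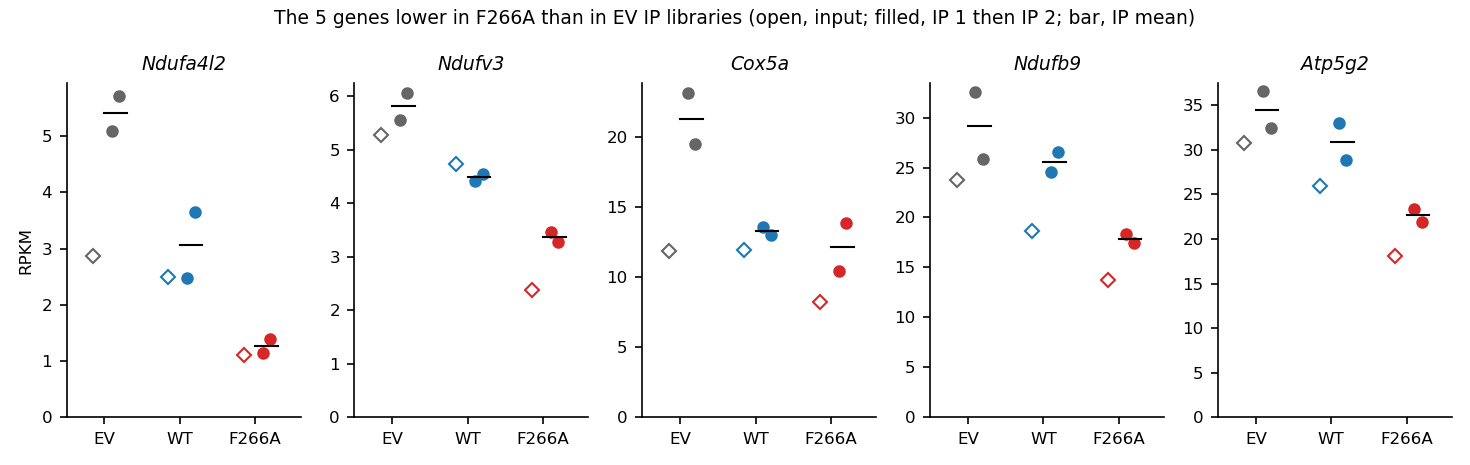
RPKM of the 5 genes that were lower in the F266A than in the EV IPs, by line, with open diamonds for the input, filled circles for the 2 IPs and a bar for the IP mean. The F266A input is below the EV input in each of the 5 genes, at 0.388 of it for Ndufa4l2 and 0.695 of it for Cox5a.

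Without F266A IP replicate 1 the differences were -1.42 for Ndufa4l2, -0.67 for Ndufv3, -0.58 for Cox5a, -0.70 for Ndufb9 and -0.63 for Atp5g2. The median of the 79 genes was then -0.16, against -0.03 for all genes. Without F266A IP replicate 2 the differences of the 5 genes were -1.58, -0.61, -0.96, -0.64 and -0.54 in the same order. Which of the 5 passed depended on the IP left out, so the share that passed is not read as above that of all genes. None of the 5 differed in enrichment over its own input between F266A and EV by limma's adjusted p, with Ndufa4l2 at -0.63 ± 0.27, an unadjusted p of 0.0479, as the farthest. The inputs alone lay in the same direction over the 79 genes. The F266A input was the lowest of the 3 for 57 of 79 genes (72.2%) and for 58.9% of all genes. Its median difference from the EV input was -0.28 against -0.12 for all genes, and with the same summed RPKM -0.12 against 0.02. The WT input also lay below the EV input, with a median of -0.13 against 0.0004 for all genes. With the same summed RPKM these WT medians were -0.09 and 0.04. The EV input was the highest of the 3 for 54 of 79 genes, against 3925 of all 9787 genes. With 1 input per line this has no replicate check, and the part of the endoderm genes that are high in the F266A input and IP replicate 2 was not tested. In such bulk libraries fewer cells of a type and less RNA per cell cannot be told apart.

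**Figure D5:**
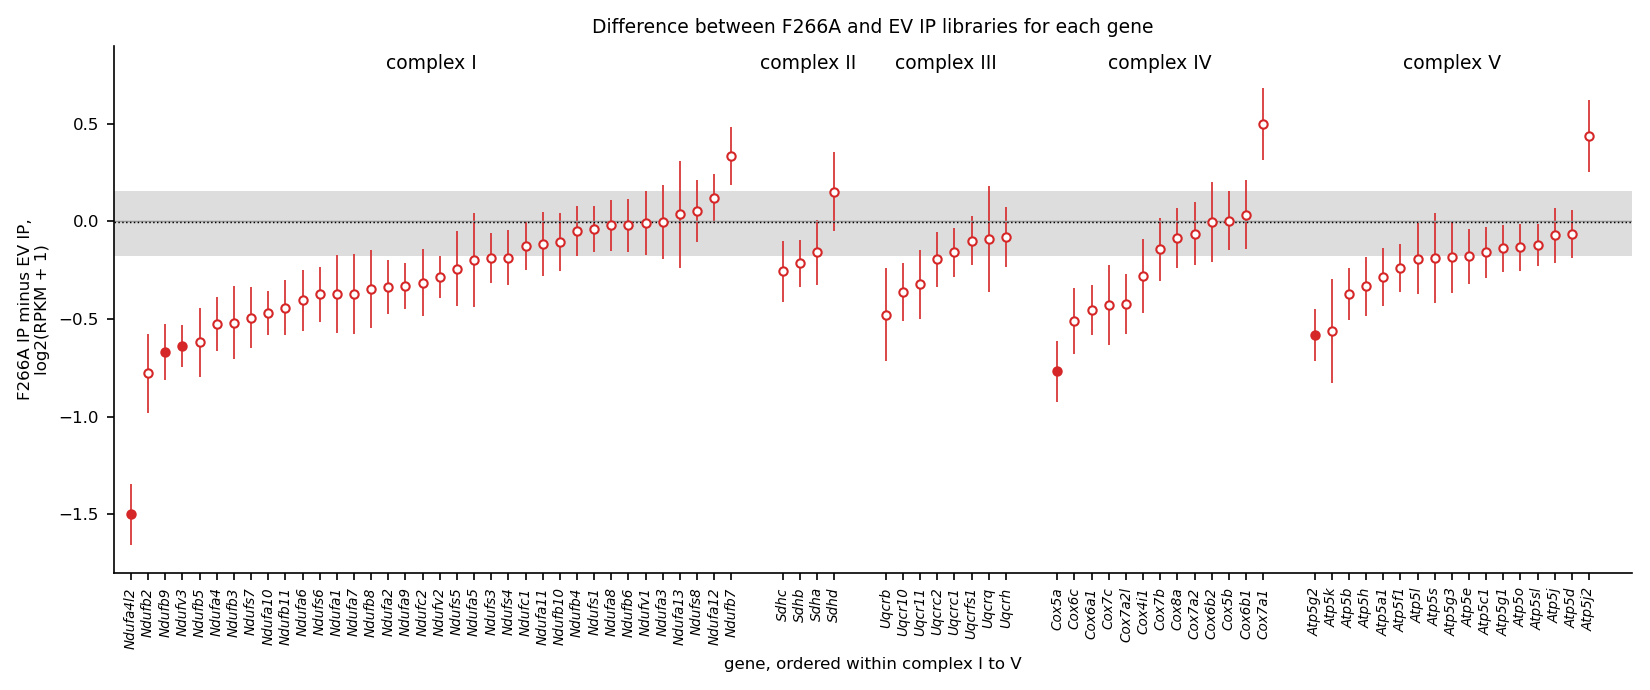
Difference between the 2 F266A and the 2 EV IPs in log2(RPKM + 1) for all but 1 of the 79 genes, with its standard error, ordered within complex; filled points passed an adjusted p of 0.05. The grey band holds the middle of all 9787 genes, from the 25th to the 75th percentile; most points lie below 0, with Ndufa4l2 at -1.50.

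Other gene groups gave a scale for this difference, though near-identical copies of their genes were not searched for here. The cytosolic ribosomal proteins, 92 genes tested, had a median F266A minus EV difference of -0.70 with 51 lower and 0 higher. This count was 25 with the same summed RPKM, 10 with quantile normalization and 9 without F266A IP replicate 1, with medians of -0.55, -0.29 and -0.58. The mitochondrial ribosomal proteins had a median of -0.02 with 1 lower and 3 higher of 76, and the proteasome subunits -0.05 with 0 of 37. With the same summed RPKM, where the median of all genes was 0.11, the mitochondrial ribosomal proteins had a median of 0.10 and the proteasome subunits 0.08. The respiratory chain genes, at -0.20 on the deposited scale and -0.06 on the other, lay between these groups and the cytosolic ribosomal proteins. Without F266A IP replicate 1 they were at -0.16, close to the proteasome subunits at -0.14 and the mitochondrial ribosomal proteins at -0.11. The median of all genes was then -0.03. Glycolytic genes had a median of -0.33, with 4 of 14 lower and 1 higher. Those lower were Tpi1, Aldoa, Pfkl and Pgk1, and the one higher was Hk2, a hexokinase that phosphorylates glucose. Without F266A IP replicate 1 Tpi1, Aldoa and Pfkl passed, and Pgk1 did not, with limma's adjusted p of 0.0552. With the same summed RPKM Pfkl and Pgk1 passed, the median of the group being -0.18, and with quantile normalization Tpi1, Pfkl and Pgk1. Hk2 was at 5.64, 6.95 and 6.38 RPKM in the EV input and IPs, 4.90, 6.52 and 6.47 in WT, and 10.5, 14.5 and 13.2 in F266A, so that all 3 F266A libraries stood above the other 6. Its difference from EV was 0.95 ± 0.12 with limma's Benjamini-Hochberg adjusted p of 0.0112, and without F266A IP replicate 1 it was 0.89 ± 0.13 with an adjusted p of 0.0148. The 13 genes of the TCA cycle tested, 36 assembly factors, 9 regulators of mitochondrial biogenesis and 6 subunits outside the name pattern gave 0 calls in this comparison, with medians of 0.06, 0.02, -0.003 and -0.01.

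These same lists were also read for the IPs against the inputs over all lines. The assembly factors, which build the complexes but do not stay in them, were higher in 24 of 36, the TCA cycle in 11 of 13, glycolysis in 10 of 14, the biogenesis regulators in 7 of 9 and the subunits outside the pattern in 2 of 6, with 0 lower in each, against 56.4% of all genes higher. Their medians ran from 0.30 to 0.40, at or above the 0.30 of all genes, and 0 genes of these lists passed with the same summed RPKM. Between the WT and F266A IPs, where 0 of the 79 genes passed, Hk2 was lower in WT, with a difference of -0.99 ± 0.12, and so was Cycs, the gene of cytochrome c that carries electrons from complex III to complex IV. Cycs was at 1.24, 1.80 and 1.91 RPKM in the WT input and IPs, 3.15, 5.03 and 4.32 in F266A, and 2.49, 3.64 and 3.09 in EV. All WT libraries were below all others for this gene, its difference was -0.99 ± 0.12, and limma's Benjamini-Hochberg adjusted p was 0.0319. Without F266A IP replicate 1 the differences were -0.92 ± 0.13 for Hk2 and -0.90 ± 0.14 for Cycs, with limma's adjusted p of 0.0250 and 0.0301.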

How the data were processed

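RNA libraries, 9 in all, of 3 mouse embryonic stem cell lines were analysed from the single table that the authors deposited, which holds 1 RPKM value per gene and library. Per the labels and the study's methods, reads were aligned to mm9 with TopHat (version 1.1.3) and the authors computed RPKM with a script of their own, as exon read density scaled to mapped reads. Counts were not used here. Depth was estimated from the smallest steps between low values, so intervals for single values were not given.

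Differences were taken on log2(RPKM + 1) for the 9787 genes with at least 1 RPKM in at least 2 libraries. All 6 groups were fitted together in limma (version 3.58.1, R 4.3.3; empirical Bayes with trend) without a replicate block, and p-values were adjusted by Benjamini-Hochberg over all genes tested. Enrichment contrasts compared IP minus input between lines. A score of a single IP is its log2(RPKM + 1) minus that of its line's input. Comparisons that share EV, WT or F266A libraries are not independent.

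Gene coordinates and lengths came from GENCODE M1 on mm9, copies were sought with BLAST (version 2.17.0), and promoter windows came from RefSeq on GRCm38.p6, a later build than that of the values. The genes named were, per complex, the highest in mean level and the highest and lowest in IP minus input, the complex II genes, isoform sets, and genes called between lines. The members, lists and tests were chosen with earlier results of these data known. Alternatives were another pseudocount, other filters, quantile normalization, the same summed RPKM, no trend, a replicate block, and leaving out libraries or lines; leaving out F266A IP replicate 1 for the other gene groups was chosen after seeing the data. Of the list 1 gene, counted in all totals, is not reported here by itself.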

Additional observations from a re-analysis of the deposited data

Results flagged for a closer look

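Of the 84 genes 4 are listed because both IPs of one line lay above their input and both IPs of another line below theirs. The share of all genes that meet this condition is not given here, so the 4 are not read as many or few. Their mean scores were as follows, each from 2 IPs against 1 input. Ndufa1, a small complex I subunit gene on the X chromosome, had a mean score of 0.45 in EV, -0.20 in WT and 0.30 in F266A. Ndufb2, near the lower limit of the levels tested, had 0.40 in EV and -0.19 in F266A. Ndufv3 had 0.12 in EV, -0.065 in WT and 0.37 in F266A. Cox7a1 had 0.85 in WT, -0.32 in EV and 0.53 in F266A. limma's test of the difference in enrichment between lines, Benjamini-Hochberg adjusted over 9787 genes, passed for 0 of these 4 genes. At an unadjusted p under 0.05 it gave 1, 3 and 3 of the 79 genes in the 3 pairs of lines, and 259, 173 and 243 of all genes.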

How the results depend on the processing

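The count of 60 respiratory chain genes higher in the IPs than in the inputs became 21 with no filter on low values, 0 with quantile normalization and 0 with the same summed RPKM, 31 without the EV line and 39 without the F266A line, and ran from 37 to 63 when single IPs were left out. The 10 genes in F266A against its input became 17 with a pseudocount of 0.1, 0 with no filter, 20 with a filter at 5 RPKM, 0 with quantile normalization, 0 with the same summed RPKM, 5 without trend and 20 with a replicate block, and 0 to 17 when single IPs were left out. The 0 genes in EV against its input became 8 with a filter at 5 RPKM and 0 to 1 when IPs were left out. WT against F266A IPs gave 1 gene in place of 0 with a pseudocount of 0.1. The 5 genes lower in F266A than in EV IPs became 0 with no filter, 2 with quantile normalization, 1 with the same summed RPKM and 0 to 3 when single IPs were left out. The 8 genes meeting the WT rule became 3 with a common input and 8 to 26 when single IPs were left out. With quantile normalization 1.03% of all genes were higher in the IPs than in the inputs, and 0% in F266A against its input. Lower in F266A than in EV IPs were 1.73%. With the same summed RPKM these shares were 2.99%, 0.0102% and 1.54%. Under the other settings the shares of all genes are not given here, so these shifts are not read as particular to the respiratory chain genes. The causes of these shifts were not tested.

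IP minus input differences turned negative with quantile normalization for Ndufa7 (-0.12), Ndufa3 (-0.33), Sdhb (-0.0089), Uqcr10 (-0.052), Uqcrc2 (-0.13), Cox8a (-0.026), Cox5b (-0.11) and Atp5o (-0.22), with the same summed RPKM for Ndufa3 (-0.21), Uqcrc2 (-0.012) and Atp5o (-0.068), and without the WT line for Ndufa3 (-0.0042). Of the single-gene values under the alternatives, 234 kept direction and side of the threshold, 88 lost the threshold, 3 gained it and 12 reversed.

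The correlation of replicate 1 minus replicate 2 over 9787 genes was 0.11 between EV and WT, 0.01 between EV and F266A and 0.26 between WT and F266A. IPs of the same number thus shared part of their deviation in WT and F266A, and the main fit held no replicate block. With a replicate block, WT against F266A IPs gave 1 respiratory chain gene and F266A against EV IPs 6, with the shares of all genes in that fit not given here. With 2 IPs and 1 input per line, and EV IP replicate 2 the shallowest at 13400000 reads, small differences were not detectable.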
